A study of Mus musculus with 2 samples.

Results

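Cluster 14 of the E11.5 library held 32 cells that the authors called G1, 59 called S and 60 called G2M, together 2.13% (1.80 to 2.49%) of the 7099 E11.5 cells, in a series of 13417 cells. Its members were taken from the authors' deposited cluster numbers, and the authors gave it no lineage name. The series holds single cells of the mandibular prominence, the embryonic precursor of lower jaw and tongue in the first pharyngeal arch, from wild-type CD1 mouse embryos. Cells were dissociated with a protease and profiled by droplet (10x) RNA sequencing in 2 libraries, 1 at embryonic day 11.5 (E11.5, tongue bud included) and 1 at embryonic day 13.5 (E13.5). The protease was used at 3 mg/ml at E11.5 and at 5 mg/ml at E13.5, so stage, library and dissociation cannot be told apart. The number of embryos behind each library is not given in the sources used here. Cluster 14 was compared with the other 6948 E11.5 cells, within itself between cells of different phase, and with the 3 E13.5 clusters that the authors named tongue muscle: cluster 1 (509 cells), cluster 15 (163 cells) and cluster 19 (80 cells).

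Skeletal muscle cells form in steps. Proliferating precursors first hold upstream factors that depend on where they come from: in muscles of the pharyngeal arches these include Tcf21, Msc and Tbx1, while precursors that migrate from somites, among them those of the tongue, carry Pax3 and Lbx1. The myogenic bHLH factors Myf5 and Myod1 then commit cells to the lineage, and Myog starts terminal differentiation, in which cells leave the cell cycle, fuse and build sarcomeres. Notch signalling is known to hold precursors in the undifferentiated state.

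Cluster 14 held 1826407 UMIs, the molecule counts of single transcripts, and its cells had a median of 11778 (range 3049 to 24792), and the rest of the E11.5 cells held 48087078, with a median of 6167. The median mitochondrial share was 4.33% in cluster 14 and 4.32% in the rest. Levels are UMIs summed over the cells of a group and scaled to a total of 1e+06 (CPM). All intervals are exact 95% intervals that cover counting error only. Each stage has 1 library, so no test between conditions was possible and no p-value is given. Because the authors' clusters were made from these same genes, the values of cluster 14 against the rest describe the cluster and test nothing. A gene was counted as higher or lower when its levels differed at least 2-fold and it held at least 20 UMIs over the groups compared, which is a rule of size. For comparisons within cluster 14 the 20 UMIs were counted over all its cells, also where some cells were left out. A gene can pass this minimum through 1 group alone, or through cells left out. In 1 cell of cluster 14, 36.2% of 24338 UMIs came from haemoglobin genes, against at most 1.53% in the other 150. That cell was called G1 and held 93 Myog UMIs. Counts over gene lists that change without it are given both ways. The 2 libraries share 71 cell barcodes, of which 1 belongs to cluster 14.

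The cluster was checked against its markers. Myod1 and Tcf21 were found in 103 and 77 of its cells and Myf5 and Myog in 69 and 68, under 50% of them. Of Myod1, Myf5, Myog and Tcf21, cluster 14 cells held UMIs of 0, 1, 2, 3 and 4 genes in 11, 24, 61, 49 and 6 cells. Over a list of 9 muscle markers, 140 cells of cluster 14 held at least 2, with a median of 4 and a highest number of 8. Outside the cluster 20 of the 6948 cells held 2 of the 9 and 0 held more. Of the 4 cells of cluster 14 with none of the 9, 3 held 10141 to 10338 UMIs and 1 held 3049 UMIs with a mitochondrial share of 0.623%. Whether these 4 are muscle precursors cannot be told from these counts. All 12 markers of neural crest mesenchyme were at least 2-fold lower in cluster 14, where they summed to 431 CPM, against 2032 CPM in the rest. Prrx1, a mesenchymal homeobox factor, was at 55.8 CPM in cluster 14 and 359.8 CPM in the rest. Markers of the other cell types were in part above 0. Of 8 epithelial markers 7 were above 0 in cluster 14, all but Cdh1, and they summed to 37.8 CPM in cluster 14 and 202 CPM in the rest. Of 7 endothelial markers 6 were above 0, all but Tek, with a sum of 8.76 CPM in cluster 14 and 66.3 CPM in the rest. Of 6 neuronal markers 4 were above 0, with Elavl3 at 0 and a sum of 39.4 CPM in cluster 14 and 62.4 CPM in the rest. Of 6 macrophage markers 3 were above 0, with Csf1r at 0 and a sum of 2.74 CPM in cluster 14 and 25.8 CPM in the rest. The 6 glial markers, with 3 above 0 and Sox10 at 0, summed to 38.9 CPM in cluster 14 and 12.5 CPM in the rest. Erbb3, listed as a glial marker and a receptor of neuregulins, was at 33.9 CPM in cluster 14 and 1.56 CPM in the rest. Of 4 measured cardiac markers 2 were higher and 2 lower, with a sum of 145 CPM in cluster 14 and 65.2 CPM in the rest. The higher ones were Nkx2-5 and Myl7, an atrial myosin light chain with 3 UMIs in cluster 14, and the lower ones Tbx5, at 0, and Hand2. Of 4 measured smooth muscle and pericyte markers 2 were higher, Acta2 and Tagln, and 2 lower, Pdgfrb and Rgs5, the last at 0, and they summed to 954 CPM in cluster 14 and 40.2 CPM in the rest. The part of such markers in other results was not tested.

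**Figure D1:**
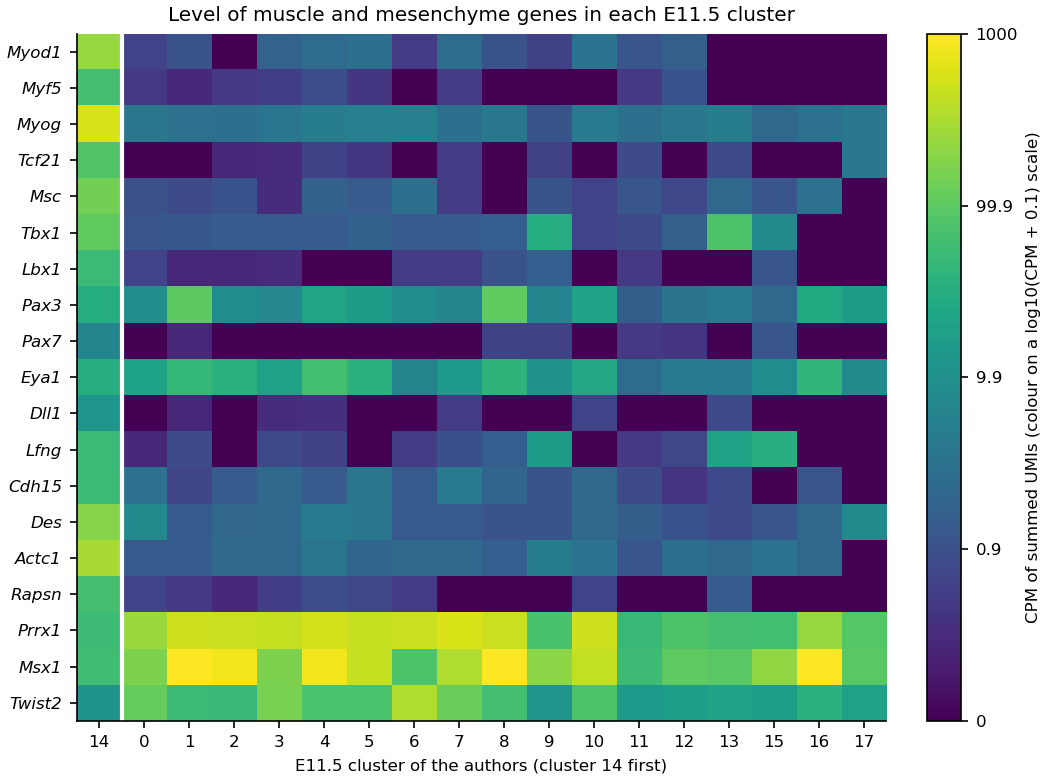
CPM of muscle, head muscle and mesenchyme genes (rows) in each of the 18 E11.5 clusters (columns, cluster 14 first), with colour on a log10(CPM + 0.1) scale. Myod1, Myf5, Myog, Tcf21, Msc and Lbx1 are bright in cluster 14, Tbx1 is also bright in other clusters, and Prrx1 and Msx1 are dimmer in cluster 14 than in the mesenchyme clusters.

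The myogenic bHLH factors were present in cluster 14 in 3 different patterns. Over all genes tested, 6.10% of 13404 were at least 2-fold higher in cluster 14 than in the rest and 19.4% were at least 2-fold lower. The median log2 ratio over all genes was 0.01. All 3 measured factors of the list were higher. Myod1, a factor that commits cells to muscle (chr7:46376474-46379099, GRCm38), held 442 UMIs in 103 cells of cluster 14, at most 19 in a cell. Its level was 242 CPM in cluster 14 and 1.21 CPM in the rest, a ratio of 201-fold (152 to 269), and the next cluster was cluster 10 at 3.27 CPM. Myf5, the earliest of these factors in most muscles (chr10:107482908-107486134), was at 64.1 CPM in cluster 14 and 0.333 CPM in the rest, from 117 UMIs spread over 69 cells with at most 7 in a cell. Myf5 was thus held at few UMIs by many cells. Myod1 was found in more cells, but 219 of its 442 UMIs lay in the 24 cells with at least 10 Myog UMIs described below.

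Myog, which drives terminal differentiation (chr1:134289989-134292548), had the highest level of the family, most of it in few cells. It was at 579 CPM in cluster 14 and 3.64 CPM in the rest, 159-fold higher (136 to 188), with 1058 UMIs in 68 cells. Of the cluster's cells 83 held none, 23 held 1, 21 held 2 to 9 and 24 held 10 or more, up to 103. Those 24 cells held 955 of the 1058 UMIs (90.3%). Outside cluster 14, 172 cells (2.48%) had a Myog UMI, and none had more than 2. Myf6, the fourth member and known for late differentiation, held 8 UMIs in cluster 14 and 4 in the rest, under the minimum of 20.

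The promoter of Myog is shown because the splits within the cluster turn on this gene. The RefSeq window runs from 250 bases before to 50 bases after the start of the gene, at chr1:134289754-134290053 on the plus strand (GRCm38.p6). Capitals mark the E-boxes, the motif CANNTG that bHLH factors are known to bind, which reads alike on both strands.
Myog: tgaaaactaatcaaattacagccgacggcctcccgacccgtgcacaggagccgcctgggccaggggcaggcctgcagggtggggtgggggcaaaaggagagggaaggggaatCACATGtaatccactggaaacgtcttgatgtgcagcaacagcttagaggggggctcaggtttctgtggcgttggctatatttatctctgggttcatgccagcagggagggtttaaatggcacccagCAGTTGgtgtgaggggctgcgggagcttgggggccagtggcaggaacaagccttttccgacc
The window holds 2 E-boxes, CACATG and CAGTTG, which start 138 and 12 bases before the RefSeq start of the gene. That start lies 15 bases after the GENCODE start given above. Neither of the forms CAGCTG and CAGGTG is in it. Of all 32851 promoter windows of the same length, 72.3% hold at least 1 CANNTG, 39.6% at least 2, 16.3% CAGCTG and 20.2% CAGGTG. The matches describe these letters and show no binding.

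Shares of cells with a UMI depend on depth, so each cell was thinned to 2000 UMIs and erythroid cells, which should lack these genes, served as background. The median depth was 11778 UMIs in cluster 14 and 13137 in erythroid cells. After thinning, Myod1 was found in 30.5% (23.2 to 38.5%) of cluster 14 cells, 0.273% of the rest and 0.439% of erythroid cells. Myog was found in 24.5% (17.9 to 32.2%), 0.806% and 0.658% of the same groups. For Myf5 the shares were 10.6% (6.18 to 16.6%), 0.07196% and 0.219%. Tcf21 was found in 11.3% (6.697 to 17.4%) of cluster 14 cells, 0.0576% of the rest and 0 of 456 erythroid cells, which allows a share of up to 0.806%. At full depth the cluster 14 shares were 68.2% for Myod1, 45.7% for Myf5, 45.03% for Myog and 50.99% for Tcf21, against at most 4.39% of erythroid cells (Myog). All 4 markers therefore stood above the background.

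Head muscle regulators of the pharyngeal arches were higher in cluster 14 for Tcf21, Msc and Tbx1, among others. Of 8 measured members 4 were at least 2-fold higher in cluster 14 and 2 lower. Tcf21, a bHLH factor of arch muscle precursors (chr10:22817281-22820174), was at 80.5 CPM in cluster 14 and 0.229 CPM in the rest, the highest ratio among genes with at least 50 UMIs in cluster 14 at 352-fold (191 to 720.3). It was found in 77 cells with at most 6 UMIs. Msc (musculin), its relative (chr1:14753346-14755992), was at 141 CPM in cluster 14 and 0.998 CPM in the rest, 142-fold higher (104 to 197), in 82 cells. Both were thus found in more cells than Myf5 and in fewer than Myod1. Tbx1, a T-box factor needed for arch muscle, was at 107 CPM in cluster 14 and 4.804 CPM in the rest, with UMIs in 98 cells of the cluster, and cluster 13 at 76.7 CPM came next. Pitx1, a jaw and hindlimb homeobox factor, was lower at 58.6 CPM in cluster 14 and 218 CPM in the rest, 0.269-fold (0.2200 to 0.325). Isl1, a factor of the second heart field and arch muscle, was at 11.5 CPM in cluster 14 and 6.47 CPM in the rest. Ebf3 and Ebf2 had ratios of 1.097 and 0.357, and Lhx2 held 3 UMIs in cluster 14 and 1 in the rest.

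Regulators of somitic and migrating precursors were present beside them. Of 8 measured members 4 were higher and 2 lower. Lbx1, a homeobox factor of migrating precursors (chr19:45232684-45235812), was at 53.1 CPM in cluster 14 and 0.312 CPM in the rest, 170.3-fold higher (98.3 to 316), in 67 cells. Pax3, the upstream paired-box factor, did not mark the cluster: it was at 30.1 CPM in cluster 14 and 23.8 CPM in the rest, 1.27-fold (0.948 to 1.66), and cluster 8, a mesenchyme cluster, was at 107 CPM. Its thinned share of cells was 5.96% in cluster 14 and 4.04% in the rest. Pax7, the paired-box factor of later muscle precursors and satellite cells, held 12 UMIs in cluster 14 and 6 in the 6948 other cells, under the minimum of 20 but a ratio of 52.7-fold (18.3 to 171). Met, the receptor of the migration signal HGF, had a ratio of 18.4 and Cxcr4, a chemokine receptor of migrating cells, of 28.2. Meox1 and Meox2, homeobox factors of the somite, had ratios of 2.24 and 0.136, and the adaptor Gab1 of 0.931. Of the Eya genes, cofactors of homeobox factors in muscle precursors, Eya2 and Eya4 had ratios of 5.51 and 2.91, while Eya1 and Eya3 were at 1.19 and 1.21. The related Dach1 and Dach2 had ratios of 2.43 and 0.627.

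Among genes with at least 50 UMIs in cluster 14, the 15 with the highest ratios against the rest included 6 of the genes above and regulators of heart and muscle. Nkx2-5, a homeobox factor best known from the heart, was at 137 CPM in cluster 14 and 0.707 CPM in the rest and was found in 108 cells, more than any of the 4 markers. Pitx3, a homeobox factor of lens and muscle, was at 86.5 CPM in cluster 14 and 0.395 CPM in the rest. Rbm24, an RNA-binding protein of muscle splicing, was at 27.9 CPM in cluster 14 and 0.125 CPM in the rest. Rapsn, which anchors acetylcholine receptors at the synapse, was at 66.3 CPM in cluster 14 and 0.354 CPM in the rest. Fitm1, a lipid droplet protein of muscle, was at 194 CPM in cluster 14 and 1.37 CPM in the rest and was found in 130 cells. Several of these genes were thus spread over most cells, while Acta1, the skeletal alpha-actin, had a ratio of 188 from 50 UMIs in 7 cells. Among genes at 50 CPM or more in the rest, the 10 lowest ratios included those of Bmp4, Dlx5, Hand2 and Mab21l2, known from jaw mesenchyme, of Krt15, an epithelial keratin (0.0899), and of Pf4, a gene of megakaryocytes and macrophages (0.0922). Bmp4 was at 4.38 CPM in cluster 14 and 73.2 CPM in the rest, Dlx5 at 12.05 CPM in cluster 14 and 126 CPM in the rest, Hand2 at 6.02 CPM in cluster 14 and 63.01 CPM in the rest and Mab21l2 at 29.6 CPM in cluster 14 and 296 CPM in the rest.

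Contractile genes were the list in which nearly all members were higher. Of 24 measured sarcomere genes, 23 were at least 2-fold higher and 0 lower. Their median log2 ratio was 5.24, and 22 of 23 were higher without the haemoglobin-rich cell. Without the 24 cells with at least 10 Myog UMIs the count was 15 of 18. Acta2, the smooth muscle actin that early skeletal muscle also uses, was at 920.4 CPM in cluster 14 and 6.800 CPM in the rest, with UMIs in 148 cells of the cluster. Its thinned share was 72.2% in cluster 14, 1.17% in the rest and 1.97% in erythroid cells. Tnnt1, the slow troponin T, was at 674 CPM in cluster 14 and 18.3 CPM in the rest, with UMIs in 150 cells of the cluster, and Des, the muscle intermediate filament desmin, was at 185 CPM in cluster 14 and 2.68 CPM in the rest. Tpm1, a tropomyosin of many tissues, was at 586 CPM in cluster 14 and 167 CPM in the rest. Acta2 and Tnnt1 were thus near universal in the cluster. Actc1, the cardiac actin of early muscle, was at 301 CPM in cluster 14 and 2.16 CPM in the rest, with UMIs in 74 cells of the cluster. Ttn, the giant filament titin, was at 74.5 CPM in cluster 14 and 0.374 CPM in the rest, with UMIs in 46 cells of the cluster. Myl1, a myosin light chain, was at 100.2 CPM in cluster 14 and 0.665 CPM in the rest, with UMIs in 25 cells of the cluster, and Mylpf, the fast regulatory light chain, at 121 CPM in cluster 14 and 8.84 CPM in the rest. Among neuromuscular and excitation genes 9 of 13 were higher and 1 lower. Chrna1, the alpha subunit of the acetylcholine receptor, had a ratio of 115, and Chrng, its fetal gamma subunit, held 31 UMIs in cluster 14 and 1 in the rest, a ratio of 816-fold (136 to 33265). Ache, the enzyme that breaks down acetylcholine, held 0 UMIs in cluster 14 and 47 in the rest. Muscle enzymes and chaperones were higher in 5 of 9, led by Klhl41, a thin filament chaperone adaptor, with a ratio of 78.99. That count was 4 of 9 without the haemoglobin-rich cell, and without the 24 Myog-rich cells it was 1 of 7 with 2 lower.

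**Figure D2:**
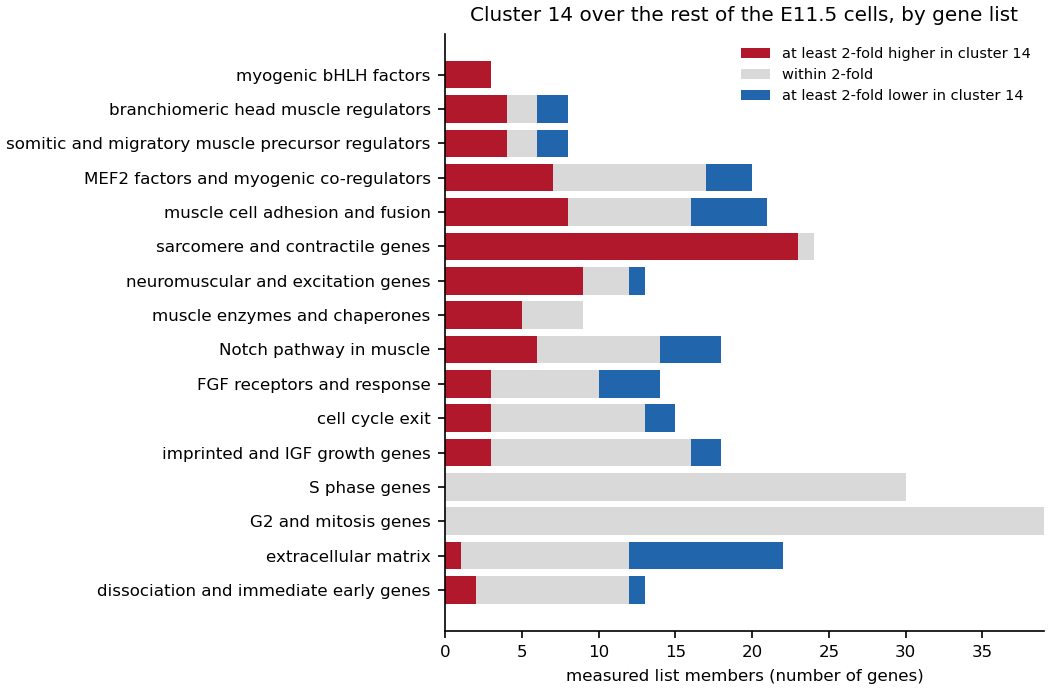
Number of measured members of each gene list shown that were at least 2-fold higher (red), within 2-fold (grey) or at least 2-fold lower (blue) in cluster 14 than in the rest of the E11.5 cells. Sarcomere genes were higher in 23 of 24 cases, S phase and G2 and mitosis genes were within 2-fold in all 30 and 39, and extracellular matrix genes were lower in 10 of 22.

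Signalling, adhesion and co-regulator lists had members on both sides, beside 6.10% of all genes higher and 19.4% lower. Lower members made up 22.2% of Notch, 28.6% of FGF, 23.8% of adhesion and 15% of co-regulator genes, not far from the share of all genes. Of 18 Notch pathway genes 6 were higher and 4 lower. Dll1, a Notch ligand, was at 12.6 CPM in cluster 14 and 0.125 CPM in the rest. Hes6, a bHLH factor that promotes differentiation, was at 227 CPM in cluster 14 and 40.3 CPM in the rest, and the Notch targets Hes1 and Heyl had ratios of 2.63 and 11.97. Lfng, which modifies Notch receptors, had a ratio of 23.2, and the ligand Jag2 held 0 UMIs in cluster 14 and 24 in the rest. Ligand, modifier and target genes were thus all represented. Of 14 FGF genes 3 were higher and 4 lower: Fgfr4, the FGF receptor of muscle precursors, had a ratio of 47.9, Spry2, an FGF feedback inhibitor, of 2.89 and Dusp6, another feedback gene, of 0.3596. Of 21 adhesion and fusion genes 8 were higher and 5 lower. Cdh15 (M-cadherin) had a ratio of 31.1, and the fusion genes listed as Tmem8c (myomaker) and Gm7325 (myomixer) had ratios of 87.8 and 115. Vcam1 was lower at 0.133. Of 20 MEF2 factors and co-regulators 7 were higher and 3 lower. Smyd1, a muscle histone methyltransferase, had a ratio of 145, Celf2, a splicing factor, of 11.8, and Id3, an inhibitor of bHLH factors, was at 547 CPM in cluster 14 and 308 CPM in the rest.

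Growth and cell cycle exit genes mostly stayed within 2-fold, as did 9988 of all 13404 genes measured, and many matrix genes were lower. Over all genes 6.10% were higher and 19.4% lower. Of 18 imprinted and IGF genes 3 were higher and 2 lower. H19, an imprinted non-coding RNA, was at 847 CPM in cluster 14 and 470.1 CPM in the rest, 1.802-fold (1.71 to 1.897), Igfbp3, an IGF-binding protein, had a ratio of 4.08 and Igf1 of 0.2700. Of 15 cell cycle exit genes 3 were higher and 2 lower (3 and 3 without the haemoglobin-rich cell), and Cdkn1a (p21), an inhibitor of cyclin-dependent kinases, was at 67.9 CPM in cluster 14 and 7.28 CPM in the rest. Cdkn1c (p57), its relative, was at 1229 CPM in cluster 14 and 966 CPM in the rest. Matrix genes were higher in 1 and lower in 10 of 22. Immediate early and dissociation genes were higher in 2 and lower in 1 of 13.

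The next comparison was within the cluster by the authors' phase calls. Cluster 14 was more often called S or G2M than the rest of the library. In cluster 14, 119 cells (78.8%, 71.4 to 85.0%) were S or G2M, against 66.0% (64.9 to 67.1%) of the rest. Of the other 17 E11.5 clusters 7 had a higher share and 10 a lower one, over a range of 18.8 to 97.8%. After thinning, 47.7% of cluster 14 cells and 39.3% of the rest held a UMI of the proliferation genes Mki67 or Top2a. Cluster 14 cells were deeper, and the deposited phase calls could not be thinned.

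G1 cells of cluster 14 held more transcript of Myog and of contractile genes than S and G2M cells, while Tcf21 and Msc were lower in G1 by less than 2-fold. Over all genes, 3.39% of 6878 were at least 2-fold higher in G1 than in S and G2M together and 7.62% were at least 2-fold lower. The median log2 ratio over all genes was -0.06. The G1 cells had a median of 9753.5 UMIs, the S cells of 11992 and the G2M cells of 12923. Myog was at 1808 CPM in G1, 396 CPM in S and 205 CPM in G2M, a ratio of G1 over S and G2M of 6.18 (5.46 to 7.01). Its UMIs were found in 19 of 32 G1 cells, 25 of 59 S cells and 24 of 60 G2M cells, with highest values of 103, 51 and 39, and 10 or more UMIs in 10, 8 and 6 cells. The phases thus overlapped, and cells with many Myog UMIs were found in each. Myod1 was at 370.3 CPM in G1, 213 CPM in S and 211 CPM in G2M, a ratio of 1.75 (1.41 to 2.15), and was found in 22 of 32 G1 cells, 41 of 59 S cells and 40 of 60 G2M cells. The share of cells with Myod1 was thus close between phases. Myf5 was at 43.4 CPM in G1, 53.2 CPM in S and 82.1 CPM in G2M, a ratio of 0.6299 (0.3401 to 1.09), in 11 of 32 G1 cells, 23 of 59 S cells and 35 of 60 G2M cells. Tcf21 was at 49.2 CPM in G1, 93.1 CPM in S and 83.3 CPM in G2M, a ratio of 0.5602 (0.317 to 0.932), in 10 of 32 G1 cells, 32 of 59 S cells and 35 of 60 G2M cells. Msc was at 89.7 CPM in G1, 132 CPM in S and 172 CPM in G2M, a ratio of 0.585. Myf5, Tcf21 and Msc were lowest in G1, by less than 2-fold, and the interval for Myf5 includes 1. Without the cells with at least 10 Myog UMIs the differences were smaller. Tcf21 was then at 72.8 CPM in G1 and 96.9 CPM in S and G2M. Msc was at 133 CPM and 172 CPM and Myf5 at 55.6 CPM and 78.9 CPM in the same order.

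**Figure D3:**
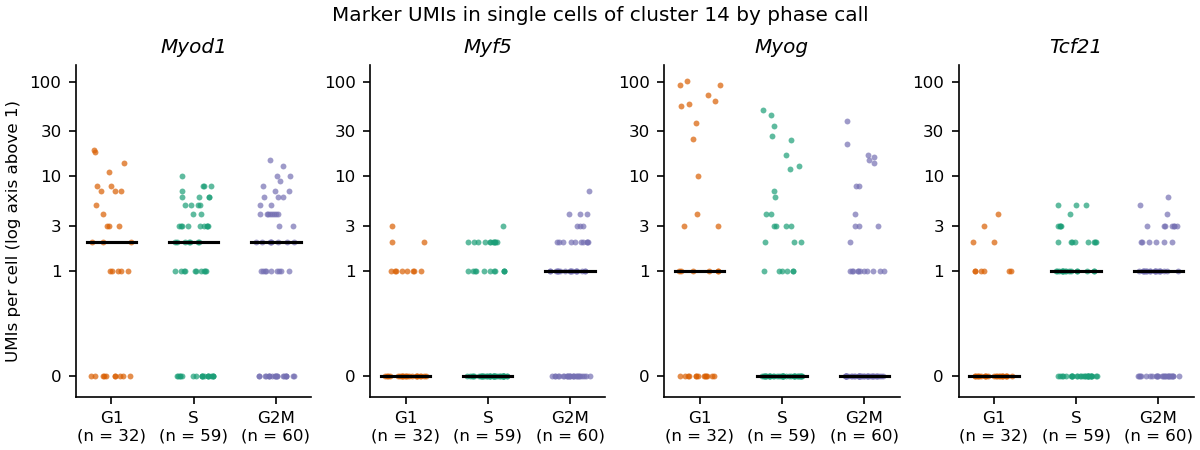
UMIs of Myod1, Myf5, Myog and Tcf21 in each cell of cluster 14 (points, log axis above 1) by the authors' phase call, with the median as a black line. The G1 column of Myog reaches 103 UMIs, against 51 in S and 39 in G2M, and most Tcf21 and Myf5 values in G1 are 0.

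Contractile genes were higher in G1 as a list. Of 21 measured sarcomere genes 17 were at least 2-fold higher in G1 and 0 lower. Their median log2 ratio was 2.42, and the count was again 17 of 21 without the haemoglobin-rich cell. A member that passed the minimum through its G1 UMIs alone, such as Acta1, could only be called higher. How many of the 17 were of this kind was not counted. The summed level of the whole list, which does not depend on the minimum, was 6865 CPM in G1 and 2759 CPM in S and G2M. Mylpf was at 573 CPM in G1, 16.3 CPM in S and 14.9 CPM in G2M, a ratio of 36.9. Myl1 was at 460.0 CPM in G1, 16.3 CPM in S and 16.2 CPM in G2M, a ratio of 28.4. Actc1 was at 972 CPM in G1, 152 CPM in S and 138 CPM in G2M, a ratio of 6.73. Mylpf and Myl1 were near absent outside G1, while Actc1 and Ttn, at 208 CPM in G1, 42.9 CPM in S and 43.5 CPM in G2M, were held in every phase. Among genes with at least 30 UMIs in the cluster, most of the 10 highest ratios were those of such genes. An exception was Dqx1, which held 33 UMIs in G1, 1 in S and 1 in G2M, those in G1 from 2 cells. Acta1 held 50 UMIs in G1, 0 in S and 0 in G2M, at least 71.4-fold higher in G1 against a floor of 3 UMIs, and all of its UMIs came from 7 cells. Tnnc1, the slow and cardiac troponin C, held 84 UMIs in G1, 3 in S and 2 in G2M. Sln (sarcolipin), a regulator of the calcium pump, held 65 UMIs in G1, 2 in S and 2 in G2M, and Tnnc2, the fast troponin C, 82 UMIs in G1, 1 in S and 5 in G2M. Gm7325 (myomixer) was at 153 CPM in G1, 1.48 CPM in S and 3.73 CPM in G2M, a ratio of 56.8. Neuromuscular genes were higher in G1 in 4 of 8, muscle enzymes in 3 of 4 (2 of 4 without the haemoglobin-rich cell), and MEF2 factors and co-regulators in 3 of 16 with 1 lower. Mef2c, a MADS-box partner of the bHLH factors, was at 133 CPM in G1, 25.1 CPM in S and 18.7 CPM in G2M. Of 11 exit genes 2 were higher and 1 lower in G1: Cdkn1a was at 199.6 CPM in G1, 48.8 CPM in S and 27.4 CPM in G2M, a ratio of 5.37 (3.72 to 7.804), and Cdkn1c at 2155 CPM in G1, 1070.0 CPM in S and 965 CPM in G2M, a ratio of 2.13.

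The head muscle, somitic, Notch and FGF lists, short at 4 to 9 measured members, each had at most 2 past 2-fold between phases. Over all genes 3.39% were higher in G1 and 7.62% lower. Of 7 head muscle regulators 0 were higher and 1 lower in G1, and of 4 somitic regulators 0 and 2. Without the haemoglobin-rich cell 1 of the 4 somitic regulators was lower. Of 9 Notch genes 0 were higher and 1 lower with that cell, and 1 was higher and 0 lower without it, so the count has no set direction. Of 7 FGF genes none was on either side, and of 15 matrix genes none with that cell and 1 higher without it. Of 18 imprinted genes 2 were higher, among them Meg3, an imprinted non-coding RNA, at 3.06. G2 and mitosis genes were lower in 15 of 39 and S phase genes in 2 of 29 (1 of 29 without the haemoglobin-rich cell), which describes the calls, since these rest on cell cycle scores. The lowest ratios included Gtse1 (0 UMIs in G1, 9 in S and 21 in G2M) and Troap (0 UMIs in G1, 7 in S and 23 in G2M), both of the mitotic spindle. Xaf1 held 0 UMIs in G1, 36 in S and 0 in G2M. All 9 erythroid markers were higher in G1 and summed to 37015 CPM there, against 12062 CPM in S and G2M. That difference came from the haemoglobin-rich cell: without it 0 of 9 were past 2-fold on either side and the sum in G1 was 12305 CPM. Mesenchyme markers were higher in G1 in 1 of 9 and lower in 0, or lower in 1 without that cell.

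The phase difference in contractile genes rested on the cells rich in Myog, a split chosen after the data were seen. Without the 24 cells with at least 10 Myog UMIs, 22 G1 cells and 105 cycling cells remained. Of 21 sarcomere genes 1 was then at least 2-fold higher in G1 and 6 were lower, beside 3.55% and 9.06% of all genes. These members passed the minimum over all cells of cluster 14, so some held few UMIs in the cells left. Tnnc1 held 0 UMIs in G1 and 3 in S and G2M, Tnnc2 0 and 5 and Acta2 167 and 950. The count was thus in part set by low numbers. The summed level of the whole list was 2277 CPM in G1 and 2444 CPM in S and G2M, against 6865 and 2759 CPM in all cells. Actc1 was then at 68.5 CPM in G1 and 85.2 CPM in S and G2M. Myl1 was at 4.28 CPM in G1 and 9.37 CPM in S and G2M. Mylpf was at 17.1 CPM in G1 and 10.2 CPM in S and G2M. Myl1 and Actc1 thus had a lower level in G1, on few UMIs, and Acta1 was at 0 in all of these cells. In the 24 Myog-rich cells, 10 in G1, 8 in S and 6 in G2M, the summed sarcomere level was 16431 CPM in G1, 5448 CPM in S and 4115 CPM in G2M. Without the haemoglobin-rich cell the G1 value was 18059.9 CPM. In cells with 1 to 9 Myog UMIs it was 2500.1 CPM in G1, 2864 CPM in S and 2580.5 CPM in G2M. In cells with none it was 2116 CPM, 2218 CPM and 2398 CPM in the same order. Below 10 Myog UMIs the sarcomere level thus lay between 2116 and 2864 CPM in every phase, and above it the level was highest in G1. The Myog-rich cells were not alike in Myog between phases, with 5435 CPM in G1, 2267 CPM in S and 1202 CPM in G2M. The G1 cells with 25 and 10 Myog UMIs had sarcomere levels of 4547 and 2003 CPM. Phase and Myog level were not separated, and the part of each was not tested. Among the Myog-rich cells Cdkn1a was also highest in G1, with 607 CPM in G1, 213 CPM in S and 147 CPM in G2M. In cells with 1 to 9 Myog UMIs it was at 0 CPM in G1, 31.7 CPM in S and 22.3 CPM in G2M, and in cells with none at 7.37 CPM, 15.4 CPM and 4.19 CPM in the same order, from at most 6 UMIs in a phase.

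**Figure D4:**
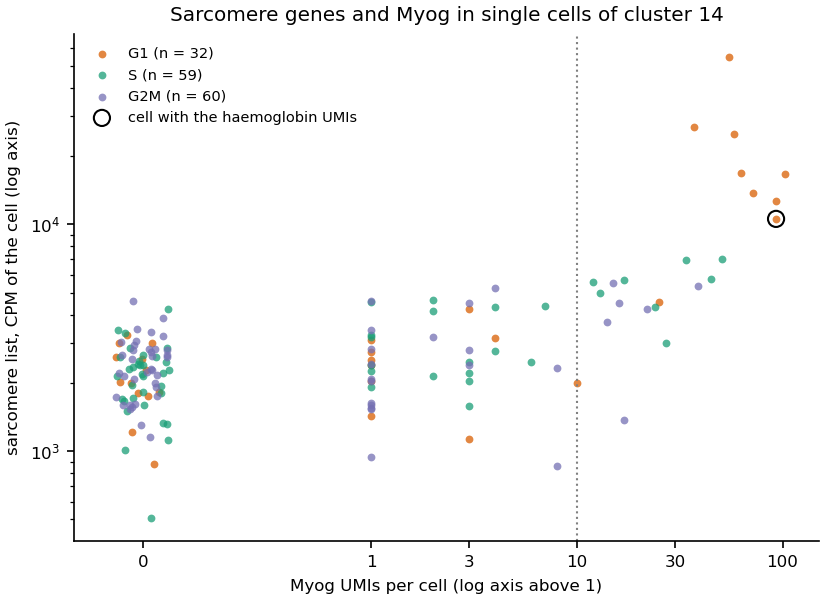
Summed CPM of the sarcomere list (log axis) against Myog UMIs (log axis above 1, cells at 0 spread sideways) in the cells of cluster 14, coloured by phase call, with a dotted line at 10 Myog UMIs and a ring around the haemoglobin-rich cell. Cells left of the line overlap in all phases, and the highest sarcomere values right of it are G1 cells.

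Split by any Myog UMI, 68 cells with a UMI (median 11738.5 UMIs) stood against 83 cells without (median 12069). Over all genes 3.05% were at least 2-fold higher in the cells with Myog and 2.50% lower. Of the cells with Myog 19 were in G1 (27.9%, 17.7 to 40.1%), against 13 of those without (15.7%, 8.61 to 25.3%), and these intervals overlap. Sarcomere genes were higher in 16 of 21. Myod1 was at 401 CPM with and 112 CPM without, Cdkn1a at 139.6 CPM with and 8.98 CPM without, and Tcf21 at 53.4 CPM with and 103 CPM without.

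Cells with many Myog UMIs differed from the other cluster 14 cells in their regulators as well. Here 24 cells with at least 10 Myog UMIs (median 11904 UMIs) were set against 127 cells with fewer (median 11778). Over all genes 4.32% were at least 2-fold higher in the Myog-rich cells and 10.1% lower. Of these 24 cells 10 were in G1 (41.7%, 22.1 to 63.4%), against 22 of 127 (17.3%). Myod1 was at 700.3 CPM with and 147 CPM without, a ratio of 4.75 (3.93 to 5.75), and was found in 24 of 24 cells with and 79 of 127 without. Myf5 was at 9.59 CPM with and 75.3 CPM without, in 3 of 24 cells with and 66 of 127 without. Tcf21 was at 19.2 CPM with and 93.2 CPM without, in 4 of 24 cells with and 73 of 127 without. Msc was at 22.4 CPM with and 166 CPM without, a ratio of 0.135. The Myog-rich cells were thus high in Myod1 and low in Myf5, Tcf21 and Msc, while Lbx1 (0.619), Tbx1 (0.584) and Nkx2-5 (0.657) were within 2-fold. Cdkn1a was at 333 CPM with and 13.2 CPM without, a ratio of 25.2 (15.5 to 42.9), and Cdkn1c at 2667 CPM with and 932 CPM without. Of 11 exit genes 4 were higher and 0 lower. Of 9 Notch genes 3 were higher and 3 lower: Hes6 was at 508 CPM with and 168 CPM without, while the targets Hes1 and Hey1 were at 92.7 CPM with and 238 CPM without and at 9.59 CPM with and 62.1 CPM without. Sarcomere genes were higher in 17 of 21 and lower in 0, and in S and G2M cells alone, 14 against 105, in 14 of 21, beside 4.73% of all genes. Without the haemoglobin-rich cell the first count was 18 of 21. Gm7325 (myomixer) had a ratio of 133 and Tmem8c (myomaker) of 43.6. G2 and mitosis genes were lower in 8 of 39 (7 without that cell) and higher in 0.

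Myog was found less often in cells with a Tcf21 UMI and more often in cells with a Myod1 UMI. These shares were taken at full depth, where deeper cells favour finding both genes of a pair. Myog was found in 27 of 77 cells with a Tcf21 UMI (35.1%, 24.5 to 46.8%) and 41 of 74 cells without (55.4%, 43.4 to 67.0%), although the cells with Tcf21 were deeper (medians 12580 and 10514.5 UMIs). Myog was found in 21 of 69 cells with a Myf5 UMI (30.4%) and 47 of 82 without (57.3%). For Myod1 the relation ran the other way, with Myog in 59 of 103 cells with a Myod1 UMI (57.3%) and 9 of 48 without (18.8%). Tcf21 was found in 44 of 69 cells with Myf5 (63.8%) and 33 of 82 without (40.2%), at medians of 12406 and 11232 UMIs, and Msc in 51 of 77 cells with Tcf21 (66.2%) and 31 of 74 without (41.9%). After thinning to 2000 UMIs few cells held a pair, and the number is set here beside that for genes found independently of each other. It was 1 cell against 1.801 for Myf5 with Tcf21 and 4 cells against 3.92 for Myf5 with Myog, so neither relation was seen at that depth. It was 5 cells against 3.26 for Tcf21 with Msc, 1 cell against 4.17 for Tcf21 with Myog and 22 cells against 11.3 for Myod1 with Myog, in the same direction as at full depth. Only for Myod1 with Myog did the interval leave out the share under independence, at 14.6% (9.36 to 21.2%) against 7.46%. For Tcf21 with Msc and Tcf21 with Myog it included that share. Of arch and somitic regulators, Tcf21 and Lbx1 were found in the same cells at about the number independence gives. Tcf21 and Pax3 were found together more often at full depth, in 25 cells against 19.4. Pax3 was found in 25 of 77 cells with Tcf21 (32.5%, 22.2 to 44.1%) and 13 of 74 without (17.6%, 9.70 to 28.2%). After thinning this pair was found in 1 cell against 1.01. Lbx1 was found in 35 of 77 cells with Tcf21 (45.5%) and 32 of 74 without (43.2%). Nkx2-5, which is on neither of these regulator lists, was found in 55 of 77 (71.4%) and 53 of 74 (71.6%). In all, 69 cells of the cluster (45.7%) held both a Tcf21 or Msc UMI and a Pax3, Pax7 or Lbx1 UMI, against 65.1 under independence, and after thinning 10 cells against 8.15. Pax3, counted here, did not mark the cluster. A missing UMI at these low counts does not show that a cell lacks the transcript.

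Cells with a Tcf21 or Msc UMI, 108 in number with a median of 12355 UMIs, were set against the 43 cells with neither (median 10411). Over all genes 4.14% were at least 2-fold higher and 2.85% lower. Sarcomere genes were lower in 15 of 21. Myog was at 172 CPM with and 1680.1 CPM without, and Myod1 at 175 CPM with and 424 CPM without, while the Notch target Hey1 had a ratio of 2.39 and Myf5 of 1.795. Without the cells with at least 10 Myog UMIs, which left 100 and 27 cells, sarcomere genes were higher in 6 and lower in 0 of 21, beside 6.46% and 2.78% of all genes, so the lower sarcomere genes rested on the Myog-rich cells. Split by a Pax3, Pax7 or Lbx1 UMI (91 cells with, 60 without, medians 12514 and 10214.5), 2.86% of all genes were higher and 1.61% lower, and sarcomere genes were lower in 8 of 21 (10 of 21 without the haemoglobin-rich cell). Myog was at 495 CPM with and 732 CPM without, and Tcf21 and Myf5 had ratios of 1.34 and 1.03.

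The last comparison set cluster 14 beside the E13.5 tongue muscle clusters, with median depths of 11778 UMIs in cluster 14, 19640 in cluster 1, 15456 in cluster 15 and 23711 in cluster 19. S or G2M was called for 78.8% of cluster 14, 96.5% of cluster 1, 16.0% of cluster 15 and 0 of 80 cells of cluster 19. For cluster 14 over cluster 1, 6.04% of 10772 genes were at least 2-fold higher and 6.67% lower. Over cluster 15 the shares were 19.1% and 9.65% of 8915 genes, and over cluster 19 they were 27.7% and 13.8% of 8857. S phase and G2 and mitosis genes stayed within 2-fold in all 30 and 39 cases against cluster 1, whereas 29 of 30 and 33 of 39 were higher in cluster 14 than in cluster 15, and 29 of 30 and 38 of 39 than in cluster 19. Sarcomere genes were higher in cluster 14 in 10 of 26 and lower in 1 against cluster 1, while their median log2 ratio was -0.03 and their summed level was 3537 CPM in cluster 14 and 4552 CPM in cluster 1. They were lower in 24 of 26 against cluster 15 (24 of 25 without the haemoglobin-rich cell) and in 29 of 29 against cluster 19. Of the 3 clusters, cluster 1 thus had the smallest shares of genes past 2-fold from cluster 14.

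Tcf21, Myf5, Msc, Pax7 and Met had their highest level in cluster 14 or cluster 1. Tcf21 was at 80.5 CPM in cluster 14, 30.9 CPM in cluster 1, 1.95 CPM in cluster 15 and 0.515 CPM in cluster 19, a ratio over cluster 1 of 2.604 (2.13 to 3.18). Myf5 was at 64.1 CPM in cluster 14, 32.8 CPM in cluster 1, 4.29 CPM in cluster 15 and 8.25 CPM in cluster 19, a ratio over cluster 1 of 1.95 (1.57 to 2.42). Msc was at 141 CPM in cluster 14, 313 CPM in cluster 1, 4.68 CPM in cluster 15 and 1.03 CPM in cluster 19, and Pax7 at 6.57 CPM in cluster 14, 21.3 CPM in cluster 1, 0 CPM in cluster 15 and 0 CPM in cluster 19. Tcf21 was thus over 2-fold higher in cluster 14 than in cluster 1, Msc and Pax7 were over 2-fold lower, and Myf5 was within 2-fold. Pax3 was at 30.1 CPM in cluster 14, 9.15 CPM in cluster 1, 9.74 CPM in cluster 15 and 5.67 CPM in cluster 19. Met was at 7.67 CPM in cluster 14, 32.9 CPM in cluster 1, 3.12 CPM in cluster 15 and 0.515 CPM in cluster 19. Lbx1, at 53.1 CPM in cluster 14, 57.2 CPM in cluster 1, 41.3 CPM in cluster 15 and 32.98 CPM in cluster 19, was within 2-fold of cluster 14 in every cluster. Myod1 was at 242 CPM in cluster 14, 350.0 CPM in cluster 1, 1239 CPM in cluster 15 and 757 CPM in cluster 19. Myog was at 579 CPM in cluster 14, 222 CPM in cluster 1, 5564 CPM in cluster 15 and 2901 CPM in cluster 19, so it was higher in cluster 14 than in cluster 1 and lower than in the other 2. The higher level than in cluster 1 rested on the 24 cells with at least 10 Myog UMIs, which were picked by Myog itself. In the other cluster 14 cells Myog was at 68.5 CPM in G1 and 68.0 CPM in S and G2M, below the level of all cluster 1 cells. After thinning, Myog was found in 24.5% of cluster 14 cells, 19.1% of cluster 1, 99.4% of cluster 15 and 80 of 80 cells of cluster 19. Cdkn1a was at 67.9 CPM in cluster 14, 32.3 CPM in cluster 1, 654 CPM in cluster 15 and 1046 CPM in cluster 19, and the Notch target Hes1 at 213 CPM in cluster 14, 395 CPM in cluster 1, 22.2 CPM in cluster 15 and 65.5 CPM in cluster 19. Mylpf was at 121 CPM in cluster 14, 53.6 CPM in cluster 1, 2542 CPM in cluster 15 and 20406 CPM in cluster 19. In cluster 14 cells with fewer than 10 Myog UMIs, Cdkn1a was at 4.28 CPM in G1 and 14.8 CPM in S and G2M. Mylpf was at 17.1 CPM and 10.2 CPM there in the same order, so both genes lay below the level of all cluster 1 cells. The cells left out of cluster 14 held most UMIs of both genes, 204 of Mylpf and 104 of Cdkn1a. No such cut was made in cluster 1, for these genes or for Myog, so these are not like comparisons.

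**Figure D5:**
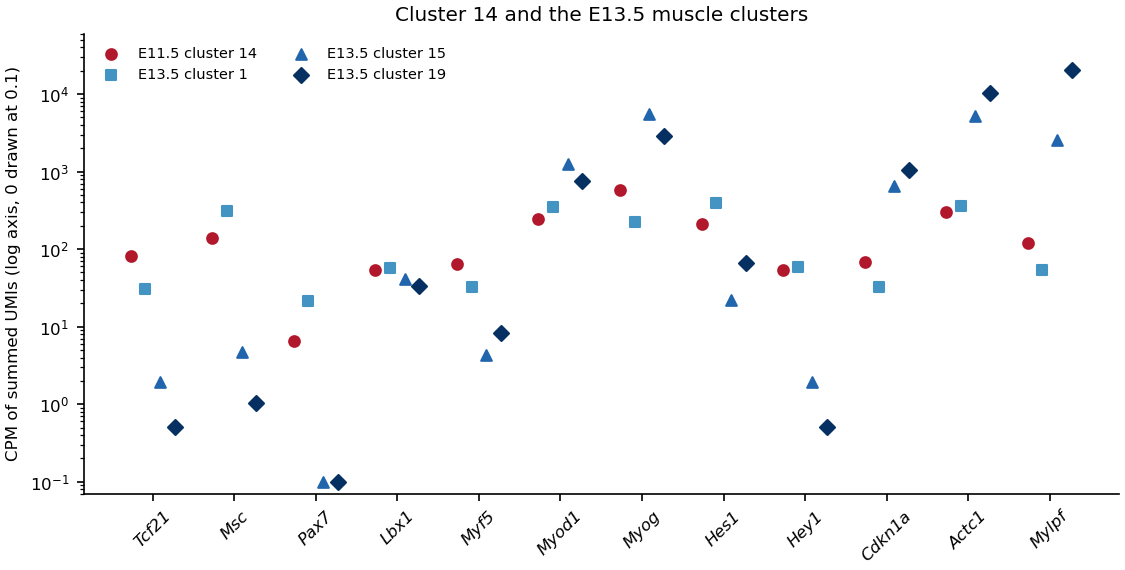
CPM (log axis, 0 drawn at 0.1) of muscle regulators and contractile genes in E11.5 cluster 14 (red circles) and in E13.5 clusters 1, 15 and 19 (blue). Tcf21 and Myf5 are highest in cluster 14, Msc and Pax7 in cluster 1, and Actc1 and Mylpf are highest in cluster 19.

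Genes with the largest ratios over cluster 1 were in part genes that differed between the libraries in mesenchyme as well. Pbld2 was 90.9-fold higher in cluster 14, and 46.5-fold higher in E11.5 than in E13.5 mesenchyme. Rrm2b and Lrrc8a had ratios of 13.2 and 11.3 in muscle and of 11.4 and 10.97 in mesenchyme. Other genes had unlike ratios in the 2 tissues: Spry2 had ratios of 11.1 in muscle and 3.46 in mesenchyme, Sln of 11.3 and 0.0824, Myl1 of 6.57 and 0.0916, and Meis2, a homeobox factor, of 6.48 and 0.871. Whether the muscle and mesenchyme ratios differ beyond library effects was not tested. The lowest ratios over cluster 1 included Srpx2 (0.0403), Myof, a membrane repair protein of fusing myoblasts (0.0618), Mark1 (0.0662), Nefl, the light neurofilament (0.0799), and Dtx4, a regulator of Notch (0.0912). Calml4, Gnao1, Micalcl, Mob3b and Trac were at 0 UMIs in cluster 14.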

How the data were processed

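Single cells of 2 libraries, 1 per stage, were measured by 10x RNA sequencing. The authors deposited a table of raw UMI counts for each library. The submitters' processing notes name Cell Ranger 2.0.0, Seurat 2.3.4 and mm10. The authors also deposited the mitochondrial fraction of each cell (given above in percent), scores for S and G2M with phase calls, and cluster numbers. The sources used here state neither the genes scored nor the cell filters nor any doublet removal. Cluster 14 holds 151 cells by the deposited cluster column.

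Counts were summed over the cells of a group and scaled to CPM. Ratios have exact conditional binomial intervals, levels exact Poisson intervals and shares exact Clopper-Pearson intervals. No test was run, since a stage has 1 library. A gene counted as higher or lower with a difference of at least 2-fold and at least 20 UMIs over the groups compared. The scripts were tested on simulated counts. Shares were also taken after thinning each cell to 2000 UMIs. Doublets were kept and no caller was run.

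Members, the 17 gene lists and the marker lists were chosen with earlier results of these data known. Named were the 4 markers, of each list the 3 members with most UMIs and those with the highest and lowest ratio, members of lists of up to 10 genes, and in each comparison the extreme ratios: the 15 highest (at least 50 UMIs in cluster 14) and 10 lowest (at least 50 CPM in the rest) against the rest, 10 and 10 against S and G2M (at least 30 UMIs in the cluster), and 10 and 10 against E13.5 cluster 1 (at least 50 UMIs in the group named as higher). Of the other genes, Tagln, Myl7, Des, Chrna1, Heyl, Lfng, Dusp6, Tmem8c, Vcam1, Smyd1, Celf2, Mef2c and Meg3 were chosen after their values were seen, as was the split at 10 Myog UMIs. Coordinates are of the GENCODE annotation of GRCm38 and the promoter is from RefSeq. List members absent from the E11.5 table, such as Musk, were not measured here, and some named genes' values are left out. The software was Python 3.11.15 with scipy 1.17.1, numpy 2.4.6, pandas 2.3.3 and matplotlib 3.10.9.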

Additional observations from a re-analysis of the deposited data

How the results depend on the processing

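No paired analysis was possible because each stage has 1 library and no result comes from a test. Alternatives were a minimum of 50 or 1 UMI in place of 20, scaling by a size factor or without haemoglobin, a mean over cells, the mesenchyme or the median of the other clusters as reference, the E11.5 cell limits on both libraries, cells of 1 phase group only, leaving out the 2 cells over 2 times the median UMI count, and other thinning. Leaving out the haemoglobin-rich cell or the cells with at least 10 Myog UMIs was chosen after the data were seen. Of the alternative values of counts and shares, 57 stayed within 1.5 times the count or within the interval of the share and 33 moved. Of those of single genes 502 stayed, 53 moved and 3 turned in direction. These counts do not hold every change of direction, as given below.

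The counts of genes depended on the minimum. With at least 1 UMI, 1413 genes were higher and 4740 lower than in the rest. For G1 over S and G2M the counts were 64 and 136 with at least 50 UMIs, and 1770 and 3181 with at least 1. Over E13.5 cluster 1 they were 378 and 424 with at least 50 UMIs, 1818 and 2744 with at least 1, and 161 lower in G1 cells only. Over cluster 15 they were 1049 and 555 with at least 50 UMIs, 3709 and 2405 with at least 1, 1077 higher in G1 cells only and 472 lower in S and G2M cells only. Over cluster 19 they were 1629 and 804 with at least 50 UMIs, 4582 and 2736 with at least 1, and 1484 higher in G1 cells only. Cluster 19 has no S or G2M cell, so that alternative was not run.

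Shares with a UMI, without thinning, were 68.2% for Myod1, 45.7% for Myf5, 45.03% for Myog and 51.0% for Tcf21. Thinned to 4000 UMIs they were 50% for Myod1, 20.7% for Myf5 and 23.3% for Tcf21. Cells with a Mki67 or Top2a UMI made up 47.7%, in place of 78.8% called S or G2M. With at least 10 Myog UMIs the G1 share was 41.7% and 694 genes were lower, and 391 were lower when Myog was read after thinning.

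Myl1 turned to a log2 ratio of -1.13 for G1 over S and G2M without the cells with at least 10 Myog UMIs. Other genes turned as well without these cells: Ttn to -1.35, Mef2c to -1.19, Cdkn1a to -1.79, Myod1 to -0.60 and Actc1 to -0.31. Most of these values rest on few G1 UMIs. In G1 and in S and G2M, Myl1 held 1 and 12, Ttn 3 and 42, Mef2c 2 and 25 and Cdkn1a 1 and 19. Myod1 held 24 and 199 and Actc1 16 and 109. Tnnc1, Tnnc2 and Klhl41 then held 0 UMIs in G1, while Mylpf stayed higher in G1 at 0.75. Over E13.5 cluster 1, Sln turned to -0.30 in S and G2M cells only and Nefl to 0.40 in G1 cells only. The cause was not tested. Scaling by a size factor shifted all log2 ratios by -0.09 against the rest, 0.02 against S and G2M, and -0.15, -0.27 and -0.33 against E13.5 clusters 1, 15 and 19. Of the genes counted, 612 of 817 higher and 1072 of 2599 lower than in the rest had an interval that excludes 1, as did 150 of 233 and 143 of 524 between phases.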
